A study of Mus musculus with 8 samples.

Results

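The genes described here encode the building blocks of the actin and microtubule cytoskeleton: actins, the proteins that feed, branch, bundle and coat actin filaments, the heavy and light chains of class II myosins, and alpha-, beta- and gamma-tubulins. They were chosen by gene symbol from 14 families, which gave 76 of the 18257 genes in the table. All 76 were found by identifier in the gene annotation of GRCm38.p6, from which the coordinates below come. After a filter on low counts 56 of the 76 could be tested, and the other 20 are given by their counts.

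Morula-stage mouse embryos of wild-type genotype were compared after culture in KSOM, an embryo culture medium, from the 4-cell stage. The A485 group had 2 µM A485 in the medium, a compound that blocks the acetyltransferases p300 and CBP, and the control group had 0.1% DMSO, the solvent of A485. Each group had 4 libraries of polyadenylated RNA, and each library pooled 3 embryos freed of the zona pellucida. The labels call the samples morulae, although the stated culture lasts to the blastocyst. Strain, litter and culture day were not stated. The title of the series asks what p300/CBP inhibition does to DNA repair and apoptosis, so the cytoskeleton is not its named subject. P-values measure only the spread between these pools, which may be partly technical. Total estimated counts per library were 23641781 to 25677701.

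Actin monomers polymerise into filaments that lie under the cell membrane, and class II myosin pulls on them. In the mouse morula this cortex drives compaction and helps to decide which cells are pushed inside, and a ring of actin filaments at the cell contacts helps to seal the outer layer before the cavity forms. Alpha- and beta-tubulin polymerise as pairs into microtubules, which carry cargo and form the spindle, while gamma-tubulin starts new microtubules. Preimplantation mouse embryos build spindles without centrioles until around the time the blastocyst forms.

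Tubulin genes were higher in A485 libraries almost throughout, while the main cytoplasmic actin, the alpha-actinins and several abundant filament-binding genes were lower. With edgeR (quasi-likelihood F test, Benjamini-Hochberg over 12936 genes), 27 of the 56 tested members rose (48.2%; 29.7% of all genes tested rose), 11 fell (19.6%; 25% of all genes tested fell) and 18 did not pass an adjusted p of 0.05; 54.7% of all genes tested passed in either direction. The median log2 fold change was 0.66 over the tested members and 0.09 over all genes tested. Of the 15 tested tubulins 12 rose and 2 fell, with a median of 1.47, and of the 41 tested actin, actin-binding and myosin genes 15 rose and 9 fell, with a median of 0.39. Both groups of libraries were separated without overlap for 24 members that were higher in A485 (42.9% of those tested; 26.9% of all genes tested) and for 14 that were lower (25% of those tested; 24.6% of all genes tested). A gene that was nearly silent in one group could pass the filter only through the other, so these shares describe the tested members and not all 76.

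**Figure D1:**
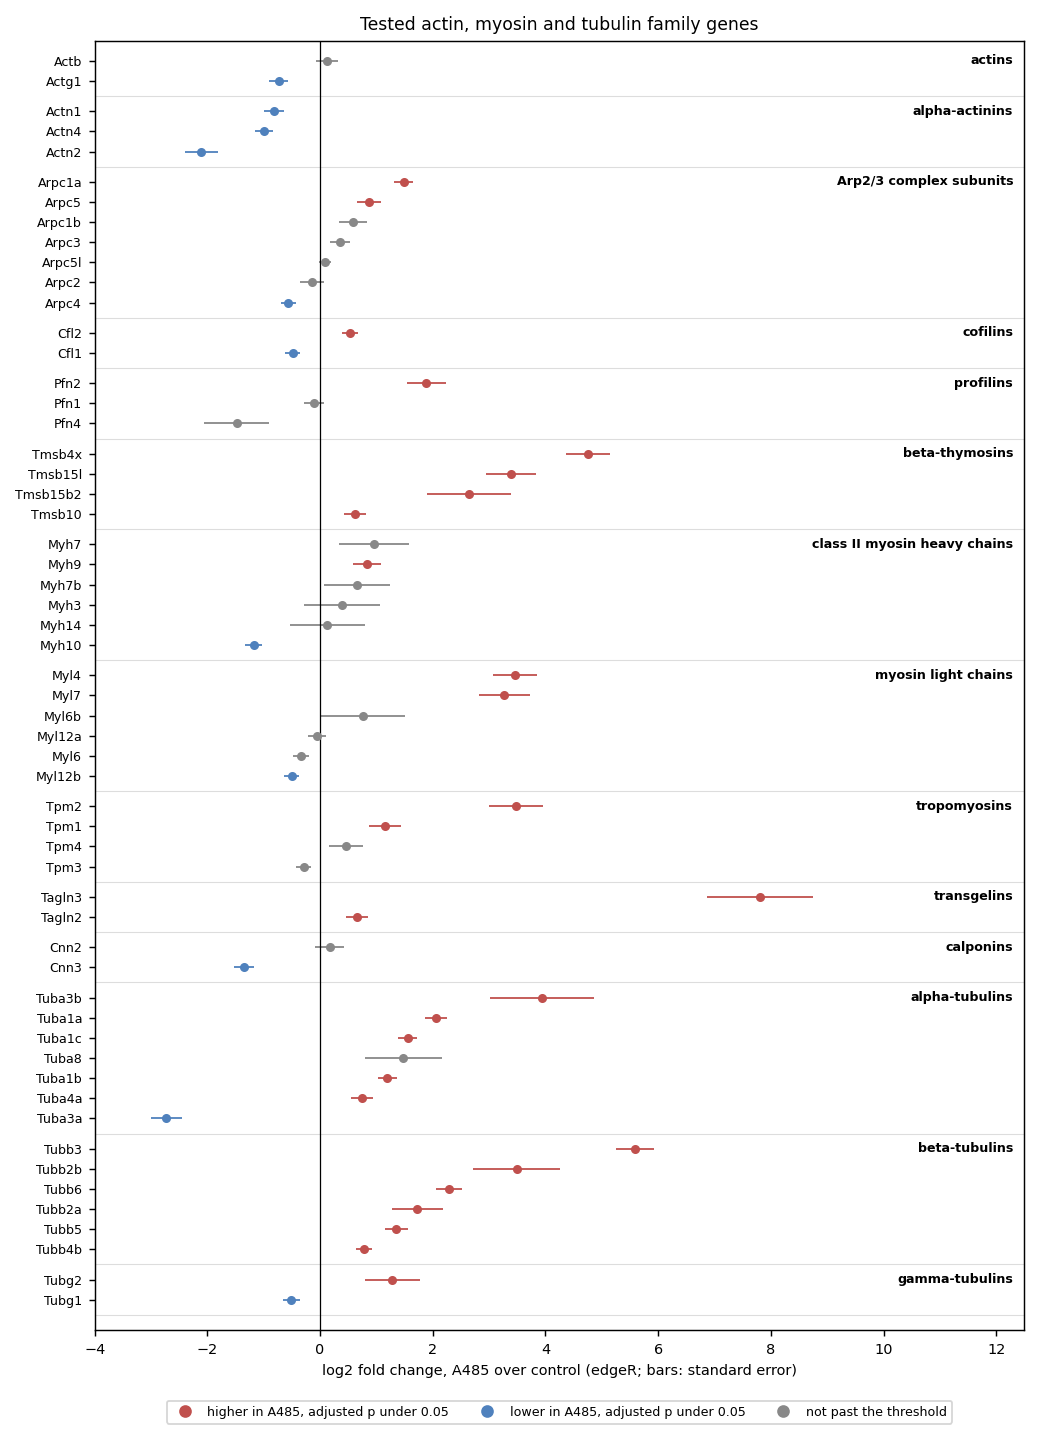
Log2 fold change of A485 over control for the 56 tested members (x axis), grouped by family (y axis), with bars for the standard error and colours for the call. All 6 tested beta-tubulins lie right of 0 and all 3 tested alpha-actinins left of it; Tagln3 had no count in any control library, so its plotted fit is not a measured fold.

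Fold changes depend on how libraries are scaled, since the deposited counts give no absolute amount of RNA per embryo. With TMM factors, which assume that most genes do not change, 71.1% of the called members were higher; with library totals alone the median of all genes moved to 0.37, and 30 members rose and 6 fell (83.3% of the called members higher, 68.2% of all called genes). No member called with TMM factors changed direction under the other scalings tried, which were RLE factors, upper-quartile factors and library totals. In such pools fewer cells of a type and less RNA per cell cannot be told apart.

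The A485 libraries were more spread than the control libraries, and along a recurrent order. The median SD of log2 CPM over tested members was 0.37 in A485 libraries and 0.24 in control libraries (0.41 and 0.25 over all genes tested). A485 replicate 1 was the lowest A485 library in 20 of the 27 members that rose (74.1%, against 57.1% of all genes that rose). Replicates 3 and 4 were each the highest in 12 (44.4%, against 47.7% and 33% of all genes that rose). Without A485 replicates 1 and 2, 32 of 62 tested members rose and 12 fell (31.3% and 27.6% of all genes tested). Without A485 replicates 3 and 4, 21 of 58 rose and 13 fell (25.8% and 23.5% of all genes tested). Called members that did not pass without A485 replicates 3 and 4 were Tmsb10, Tpm1, Tagln2, Myh9, Tuba4a, Tubb2a, Tubg1 and Tubg2.

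Of the 5 actin genes, the 2 cytoplasmic ones made up nearly all actin RNA and moved apart. Actg1, which encodes gamma-actin (chr11:120345687-120348495), had 3975, 3271, 3699 and 4736 CPM in the A485 libraries, against 6604, 6766, 5395 and 7383 CPM in the control libraries. Every A485 library was below every control library, and Actg1 fell by 0.74 ± 0.16 on the log2 scale (SE; edgeR adjusted p = 0.0033). Actb, encoding beta-actin (chr5:142903115-142907976), had 1580.2, 1608, 1816 and 2634 CPM in the A485 libraries, against 1714, 1441, 1989.5 and 1866 CPM in the control libraries. A485 replicate 4 was the highest of all 8 libraries for Actb, the groups overlapped, and the difference did not pass the test (log2 fold change 0.12 ± 0.19, edgeR adjusted p = 0.6; -0.07 without A485 replicate 4).

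The count of Actg1 over that of Actb in the same library, which no scaling can move, averaged 2.1 ± 0.301 in A485 libraries and 3.8 ± 0.819 in control libraries (SD, n = 4 each) and did not overlap between the groups. Per length, Actb made up 32.4% ± 3.01 in A485 libraries and 21.2% ± 3.97 in control libraries of actin RNA. Summed over the family, actin TPM was 3941 ± 694 TPM in A485 libraries and 4507 ± 326 TPM in control libraries, with overlapping groups. TPM, unlike CPM here, carries no TMM factor. Counts of both genes were not whole in every library, so reads were divided between near-identical copies, and the split between them carries that uncertainty. The muscle actins had few counts in both groups and were not tested: the highest count in any library was 23 for Acta1 and for Actg2 and 8 for Acta2.

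The promoter of Actg1 (RefSeq, GRCm38.p6, chr11:120348446-120348745, minus strand; 250 bases before to 50 after the gene's start) is shown because actin promoters are known for the CArG box, the binding motif of serum response factor (SRF), and because this promoter belongs to the main actin that fell. The promoter of Actn2 (chr13:12340683-12340982, minus strand) is set beside it as that of the alpha-actinin with the largest decrease. Capitals mark every match, on either strand, of the CArG box, the CCAAT motif, the GC box (GGGCGG), the antioxidant response element (TGACNNNGC) and TATAAA, called the TATA motif.
Actg1: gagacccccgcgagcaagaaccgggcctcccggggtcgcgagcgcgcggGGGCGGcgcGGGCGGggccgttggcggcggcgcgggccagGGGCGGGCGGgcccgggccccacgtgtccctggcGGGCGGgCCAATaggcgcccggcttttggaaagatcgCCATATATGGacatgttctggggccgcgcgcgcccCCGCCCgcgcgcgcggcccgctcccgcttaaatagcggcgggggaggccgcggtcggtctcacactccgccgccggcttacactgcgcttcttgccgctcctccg
Actn2: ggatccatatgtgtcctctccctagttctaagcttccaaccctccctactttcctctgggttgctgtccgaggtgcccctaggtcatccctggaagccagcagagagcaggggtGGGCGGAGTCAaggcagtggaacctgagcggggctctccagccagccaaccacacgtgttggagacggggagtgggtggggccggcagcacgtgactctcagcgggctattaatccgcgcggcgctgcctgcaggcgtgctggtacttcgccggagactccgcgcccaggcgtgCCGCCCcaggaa
The CArG box of Actg1 lies at -90 from the start; its CCAAT motif lies at -120 and several GC boxes, 2 of them overlapping, lie around them. In Actn2 a GC box and an antioxidant response element overlap, at -136 and -134, and there is no CArG box in this window. Of the 67 members with a promoter in the RefSeq table, 51 were tested, and 4 of these 51 held a CArG box (7.84%: Actg1, Arpc4, Myl7 and Cnn2), against 1.25% of the promoters of all genes tested. Of these 4 genes Actg1 and Arpc4 fell, Myl7 rose and Cnn2 did not pass the test. Actb was among the members without a listed promoter, so it was not searched for a CArG box.

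**Figure D2:**
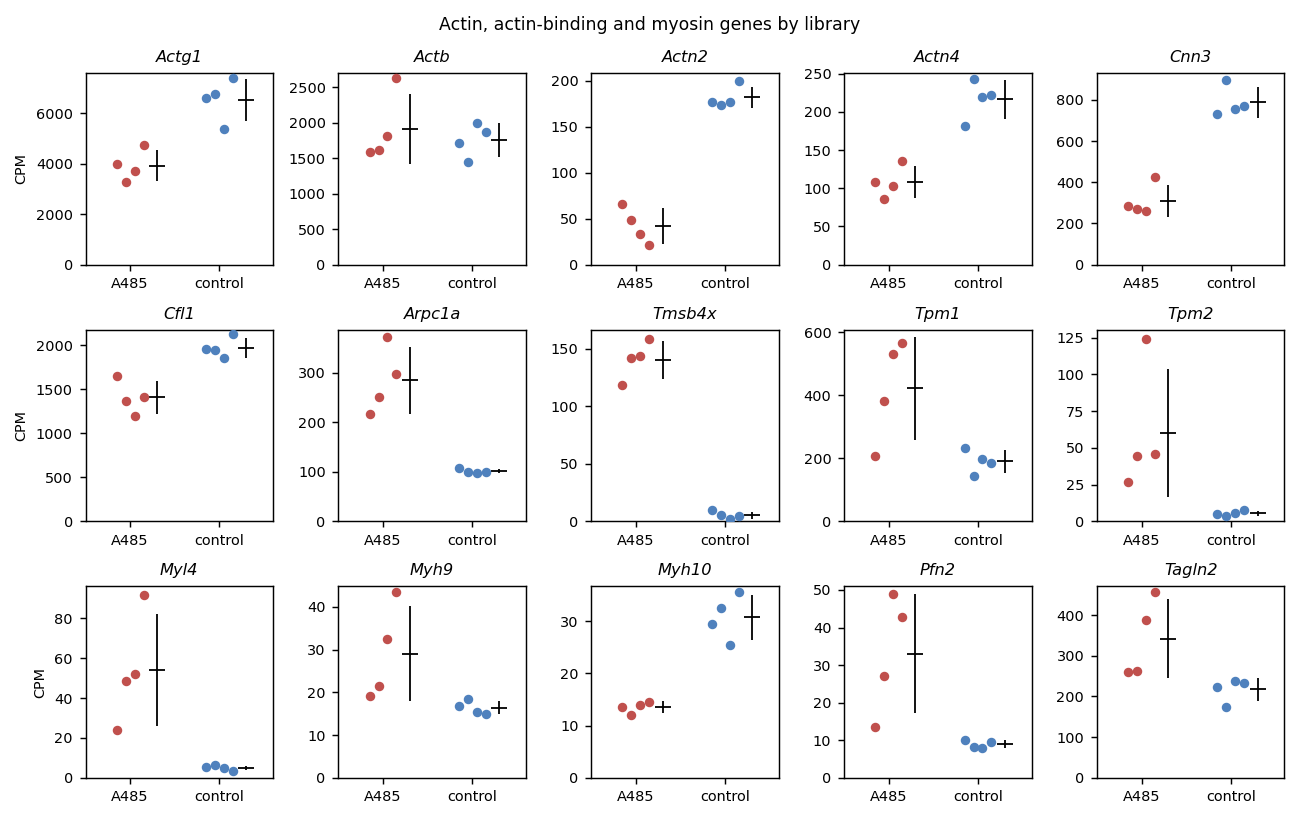
CPM in each library (points; A485 left, control right; y axis from 0) of 15 actin, actin-binding and myosin genes, with the mean (horizontal line) and SD (vertical line, n = 4). Actg1, Actn2, Actn4, Cnn3, Cfl1 and Myh10 show all A485 points below all control points, and Tmsb4x, Tpm2 and Myl4 show them far above.

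Filament assembly was covered by the subunits of the Arp2/3 complex, which starts branches on existing filaments, and by the profilins, cofilins and beta-thymosins, which bind actin monomers or cut filaments. All 7 Arp2/3 subunit genes were tested: 2 rose, 1 fell and 4 did not pass. Arpc1a (chr5:145083869-145108756) had 216, 251, 373 and 299 CPM in the A485 libraries, against 108, 100.1, 97.4 and 100.1 CPM in the control libraries. All A485 libraries exceeded the control libraries, which lay close together (log2 fold change 1.49 ± 0.17, adjusted p = 7.82e-05, edgeR). Its neighbour and paralogue Arpc1b, which can take the same place in the complex, ranged over 285 to 718 CPM in A485 libraries and 304 to 361 CPM in control libraries, with overlap, and did not pass (log2 fold change 0.58 ± 0.25, adjusted p = 0.0732). The ratio of Arpc1a to Arpc1b counts averaged 0.63 ± 0.148 in A485 libraries and 0.315 ± 0.0103 in control libraries and did not overlap. Arpc5 rose by 0.87 ± 0.22 (edgeR adjusted p = 0.00679), with 288, 335, 491 and 601 CPM in the A485 libraries, against 259, 208, 245 and 226 CPM in the control libraries. Its alternative subunit Arpc5l stayed within a narrow range, 197 to 227 CPM in A485 libraries and 187 to 208 CPM in control libraries (log2 fold change 0.09 ± 0.11, adjusted p = 0.499). Arpc4 fell by 0.56 ± 0.14 (edgeR adjusted p = 0.00642) to 183 ± 32.6 CPM in A485 libraries, against 270.0 ± 13.9 CPM in control libraries (SD, n = 4 each).

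The Arp2/3 counts moved with the scaling: with library totals 5 subunits rose and none fell, and the fall of Arpc4 no longer passed (adjusted p = 0.0998). Single libraries mattered too. Arpc1b passed without A485 replicate 1 (log2 fold change 0.76, adjusted p = 0.00794), and also with upper-quartile factors (adjusted p = 0.0419), library totals (0.0171), a filter of 5 CPM (0.0359) and without A485 replicates 1 and 2 (0.00024). Arpc2 passed as lower without A485 replicate 4 (-0.42, adjusted p = 0.0332) and without A485 replicates 3 and 4 (-0.53, adjusted p = 0.00884). Arpc3 passed as higher without control replicate 2 (0.54, adjusted p = 0.0182), with library totals (adjusted p = 0.00859) and with a filter of 5 CPM (adjusted p = 0.0399). With all libraries the log2 fold changes were -0.14 ± 0.22 for Arpc2 (adjusted p = 0.593) and 0.35 ± 0.18 for Arpc3 (adjusted p = 0.122).

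The 2 cofilins, which sever filaments, moved in opposite directions. Cfl1, the abundant non-muscle cofilin, had 1647, 1370.5, 1197 and 1418 CPM in the A485 libraries, against 1958, 1945, 1856 and 2131 CPM in the control libraries. It fell by 0.49 ± 0.13 (edgeR adjusted p = 0.011), with no overlap, but did not pass with library totals (adjusted p = 0.0851). Cfl2, best known from muscle, rose by 0.53 ± 0.14 (edgeR adjusted p = 0.00796), with 93 ± 13.6 CPM in A485 libraries and 64.2 ± 4.8 CPM in control libraries (SD, n = 4 each). The count of Cfl1 over that of Cfl2 averaged 15.5 ± 3.71 in A485 libraries and 30.8 ± 1.25 in control libraries, again without overlap, and Cfl1 remained 97.6% of cofilin TPM in A485 libraries and 98.9% in control libraries.

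Profilins bind actin monomers and hand them to growing filaments. Pfn1, which made up 99% of profilin TPM in A485 libraries and 99.7% in control libraries, had 1234, 1063, 1152 and 1859 CPM in the A485 libraries, against 1449, 1475, 1388 and 1440.0 CPM in the control libraries. A485 replicate 4 was high and the other 3 were below all control libraries, and no difference passed (log2 fold change -0.12 ± 0.18, adjusted p = 0.6, edgeR). Pfn2, a profilin known from the nervous system, rose by 1.89 ± 0.34 (edgeR adjusted p = 0.00119), with 13.6, 27.1, 48.8 and 42.7 CPM in the A485 libraries, against 10.2, 8.26, 7.83 and 9.46 CPM in the control libraries. A485 replicate 1 lay just above the control range, and without A485 replicates 3 and 4 the log2 fold change was 1.19. Pfn4, a testis profilin at the edge of detection, was lower in every A485 library but did not pass (log2 fold change -1.48 ± 0.58, adjusted p = 0.0504); it passed as lower without control replicate 3 (-1.71, adjusted p = 0.0467) and, with all libraries, by DESeq2 (adjusted p = 0.0249), with RLE factors (0.0489), with no filter (0.0494) and with a non-robust fit (0.0498). Pfn3 had a highest count of 11 and was not tested.

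Beta-thymosins are small proteins that hold actin monomers out of filaments. All 4 tested members rose, but Tmsb15l and Tmsb15b2 had few control counts and passed the filter only through the A485 libraries. Tmsb4x (chrX:167207093-167213479), the classic member of the family, had 119, 142, 143 and 159 CPM in the A485 libraries, against 9.47, 5.01, 2.21 and 4.13 CPM in the control libraries. Its A485 libraries lay close together while the control libraries were all below 10 CPM, a 27-fold difference (log2 fold change 4.76 ± 0.40, adjusted p = 2.12e-05, edgeR). Tmsb10, the most abundant thymosin, had 440.2, 402, 456 and 679 CPM in the A485 libraries, against 345, 402, 270.4 and 276 CPM in the control libraries. It rose by 0.61 ± 0.20 (edgeR adjusted p = 0.0222), and the lowest A485 value and the highest control value nearly met. The rise of Tmsb10 did not pass without A485 replicate 4 (adjusted p = 0.0542), without control replicate 3 (adjusted p = 0.0855), without control replicate 4 (adjusted p = 0.0761) or without A485 replicates 3 and 4 (adjusted p = 0.0933).

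Per length, Tmsb4x made up 18.4% ± 2.62 in A485 libraries and 1.12% ± 0.658 in control libraries of thymosin RNA (SD, n = 4 each), and the summed thymosin level was 1905 ± 422 TPM in A485 libraries and 808 ± 134 TPM in control libraries. Among the low members, Tmsb15l ranged over 2.03 to 3.78 CPM in A485 libraries and 0.167 to 0.44 CPM in control libraries (log2 fold change 3.39 ± 0.44, adjusted p = 0.000175) and Tmsb15b2 over 0.549 to 1.03 CPM in A485 libraries and 0 to 0.278 CPM in control libraries (log2 fold change 2.64 ± 0.75, adjusted p = 0.0125). Tmsb15l overlaps Tmsb15b1 and Tmsb15b2 on chromosome X, their counts were rarely whole, and reads of these genes cannot be told apart with certainty. Tmsb15a and Tmsb15b1 were not tested, with highest counts of 11 and 25; Tmsb15b1 entered the test under 7 alternatives, passed as higher in 3 (without A485 replicate 4, without control replicate 2 and without A485 replicates 3 and 4, adjusted p = 0.0171, 0.0496 and 0.0467) and did not pass in the other 4 (adjusted p = 0.0704 to 0.087). The Tmsb4x promoter (chrX:167209169-167209468, minus strand) is shown as that of the actin-binding gene with the largest rise among those counted in every library, with the same capitals as above. This window is the first one listed for the gene and lies inside it, at an inner start. The gene's outermost start was not searched.
Tmsb4x: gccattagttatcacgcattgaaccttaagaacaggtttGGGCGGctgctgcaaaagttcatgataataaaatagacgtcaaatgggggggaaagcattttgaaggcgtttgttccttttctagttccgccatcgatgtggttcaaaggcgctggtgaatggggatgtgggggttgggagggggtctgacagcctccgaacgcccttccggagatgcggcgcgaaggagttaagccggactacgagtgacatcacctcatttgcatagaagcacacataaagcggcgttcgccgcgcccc
It held 1 GC box, at -211 from that inner start, and no match to the other 4 motifs in this window.

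Bundling and coating of filaments fell to the alpha-actinins, tropomyosins, calponins and transgelins. Alpha-actinins crosslink filaments, and all 3 tested members fell. Actn2 (chr13:12269426-12340732), known from the Z-disc of striated muscle but here the highest alpha-actinin of control embryos per length, had 65.5, 48.8, 33.1 and 21.2 CPM in the A485 libraries, against 177, 174, 177 and 199 CPM in the control libraries. The A485 libraries differed among themselves by up to 3.08-fold, yet all were well below the control libraries (log2 fold change -2.11 ± 0.30, adjusted p = 0.000269, edgeR). Without A485 replicates 1 and 2 the log2 fold change was -2.76. Actn4, a non-muscle member, had 109, 86, 103 and 136 CPM in the A485 libraries, against 181, 243, 219 and 221 CPM in the control libraries. It fell by 0.99 ± 0.16 (edgeR adjusted p = 0.000538) without overlap. Actn1, the other non-muscle member, fell by 0.82 ± 0.18 (edgeR adjusted p = 0.00355) to 13.9 ± 2.93 CPM in A485 libraries, against 24.5 ± 2.38 CPM in control libraries, but did not pass with library totals (adjusted p = 0.0604).

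Summed alpha-actinin TPM was 64.8 ± 4.88 TPM in A485 libraries and 153 ± 10.7 TPM in control libraries, and Actn2 supplied 39.1% ± 13.4 in A485 libraries and 59.7% ± 3.2 in control libraries. Actn3, the alpha-actinin of fast muscle fibres, had a highest count of 19 and was not tested.

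Tropomyosins lie along the groove of actin filaments and influence which other proteins bind there. Of the 4 genes, Tpm1 and Tpm2 rose and Tpm3 and Tpm4 did not pass. Tpm2 (chr4:43513726-43523583) had 26.8, 44.5, 124 and 45.6 CPM in the A485 libraries, against 4.62, 3.75, 5.67 and 7.52 CPM in the control libraries. A485 replicate 3 was far above the other A485 libraries, and without it the log2 fold change was 2.85, against 3.48 ± 0.48 with all libraries (edgeR adjusted p = 0.000297). Tpm1 had 209, 382, 531 and 567 CPM in the A485 libraries, against 233, 145, 198 and 186 CPM in the control libraries. A485 replicate 1 was inside the control range and the other 3 were above it (log2 fold change 1.15 ± 0.28, adjusted p = 0.00656, edgeR), and without A485 replicates 3 and 4 the difference did not pass (adjusted p = 0.0585).

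Tpm3, the tropomyosin with the highest level per length in control embryos, averaged 753 ± 91 CPM in A485 libraries and 922 ± 61.7 CPM in control libraries (SD, n = 4 each; log2 fold change -0.29 ± 0.13, adjusted p = 0.0788). It passed as lower without A485 replicate 1 (-0.34, adjusted p = 0.0397) and without A485 replicates 1 and 2 (-0.46, adjusted p = 0.01). For Tpm4 the log2 fold change was 0.47 ± 0.30 (adjusted p = 0.214), with A485 replicate 4 at 513 CPM and the other A485 libraries at or near the control range of 170.2 to 237 CPM; without A485 replicates 1 and 2 it passed as higher (0.86, adjusted p = 0.0129). Per length, Tpm3 made up 37.7% ± 10.6 in A485 libraries and 59.4% ± 4.69 in control libraries of tropomyosin RNA and Tpm1 made up 37.4% ± 6.57 in A485 libraries and 21.6% ± 3.08 in control libraries.

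Calponins and transgelins bind along filaments and are best known from smooth muscle, though some members are widespread. Cnn3 (chr3:121426541-121458205), a widespread calponin, had 285, 269, 261 and 425 CPM in the A485 libraries, against 729.9, 896, 753 and 769.5 CPM in the control libraries. Its A485 libraries were all below the control libraries, and it fell by 1.34 ± 0.17 (edgeR adjusted p = 0.000167). Cnn2 did not pass, with overlapping values and a log2 fold change of 0.17 ± 0.26 (edgeR adjusted p = 0.594), but passed as higher without A485 replicates 1 and 2 (0.55, adjusted p = 0.0259). The count of Cnn3 over that of Cnn2 averaged 9.46 ± 2.72 in A485 libraries and 26.1 ± 6.88 in control libraries, without overlap. Cnn1, the smooth muscle calponin, had 57 counts over all A485 libraries, against 0 over all control libraries, at least 15.9-fold more CPM with a floor of 3 counts over the control group; 31 of the 57 came from 1 library and the gene did not pass the filter. It entered the test and passed as higher in the fit without A485 replicate 1 and in those without any 1 control library (adjusted p = 0.00253 to 0.0209), and likewise with no filter and without A485 replicates 1 and 2.

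Tagln2, the widespread transgelin, had 260.1, 263, 389 and 457 CPM in the A485 libraries, against 223, 175, 238 and 232 CPM in the control libraries. It rose by 0.66 ± 0.20 (edgeR adjusted p = 0.0177) with A485 replicates 3 and 4 highest, and did not pass without these 2 (adjusted p = 0.145). Tagln3, known from neurons, had 1.27, 1.13, 1.43 and 0.665 CPM in the A485 libraries and no count in any control library. That is at least 34-fold higher with the same floor of 3 counts over the control group, and it passed the test (edgeR adjusted p = 0.0004). Tagln, the smooth muscle transgelin, had a highest count of 17 and was not tested.

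**Figure D3:**
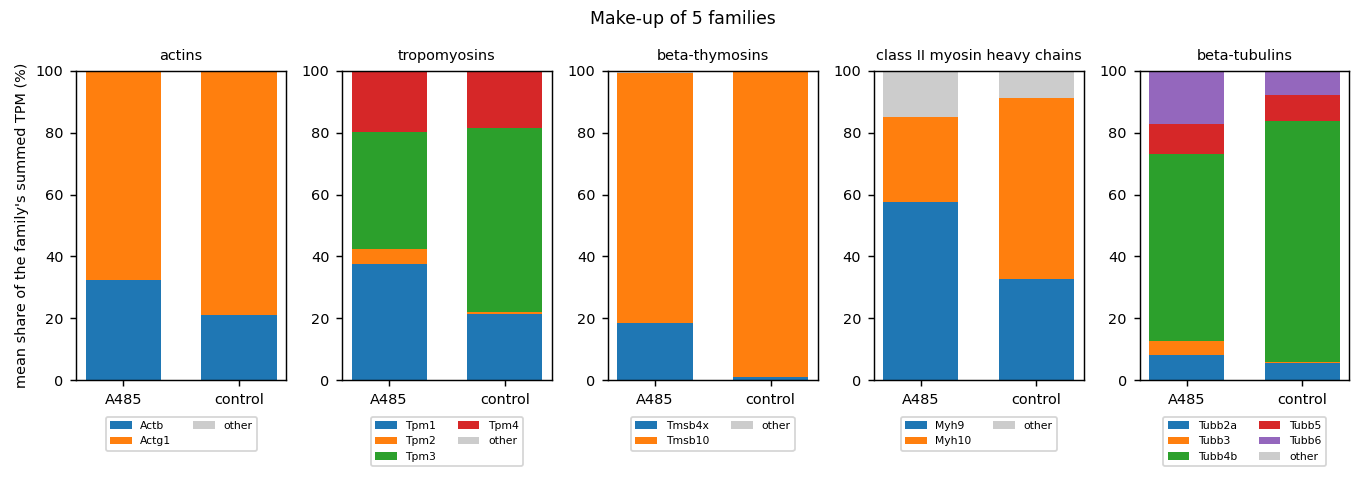
Mean share of each gene in the summed TPM of its family (y axis, percent; A485 left, control right; means over 4 libraries each) for 5 families. Tmsb4x is visible in the A485 bar and almost absent from the control bar, Actb and Tpm1 take larger shares in A485, and Myh9 exceeds Myh10 in A485 while the reverse holds in control.

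Class II myosins are built from 2 heavy chains with an essential and a regulatory light chain each. Among the heavy chains the non-muscle pair moved in opposite directions. Myh10, the heavy chain of non-muscle myosin IIB (chr11:68691915-68816626), had 13.6, 12.1, 14 and 14.6 CPM in the A485 libraries, against 29.4, 32.6, 25.5 and 35.5 CPM in the control libraries. The A485 values were tightly grouped below the control values, a fall of 1.18 ± 0.16 on the log2 scale (edgeR adjusted p = 0.000192). Myh9, the heavy chain of non-muscle myosin IIA (chr15:77760585-77842175), had 19, 21.4, 32.5 and 43.4 CPM in the A485 libraries, against 16.7, 18.4, 15.5 and 14.9 CPM in the control libraries. All A485 libraries were above all control libraries, replicates 1 and 2 only slightly (log2 fold change 0.83 ± 0.25, adjusted p = 0.0175, edgeR).

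The rise of Myh9 did not pass without control replicate 3 (adjusted p = 0.0506), without control replicate 4 (adjusted p = 0.053) or without A485 replicates 3 and 4 (adjusted p = 0.17). The count of Myh9 over that of Myh10 averaged 2.12 ± 0.686 in A485 libraries and 0.54 ± 0.0832 in control libraries (SD, n = 4 each), without overlap. Per length, Myh9 made up 57.5% ± 5.53 in A485 libraries and 32.8% ± 3.55 in control libraries of heavy-chain RNA. Both were low beside their light chains: summed heavy-chain TPM was 8.05 ± 2.62 TPM in A485 libraries and 6.46 ± 0.419 TPM in control libraries, and summed light-chain TPM 2791 ± 308 TPM in A485 libraries and 2743 ± 132 TPM in control libraries.

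The other 4 tested heavy chains averaged under 2 CPM in both groups and none passed: the log2 fold changes were 0.96 ± 0.62 for Myh7, 0.66 ± 0.59 for Myh7b, 0.39 ± 0.67 for Myh3 and 0.13 ± 0.66 for Myh14, the third non-muscle heavy chain. Of the 6 untested heavy chains, Myh6, a cardiac one, had the most counts, 184 over the A485 libraries and 8 over the control libraries, with 91 in 1 A485 library. Myh6 entered the test in the fit without A485 replicate 1 and in those without any 1 control library, and passed as higher in all 5 (adjusted p = 0.000631 to 0.0091), as it did with no filter and without A485 replicates 1 and 2. Myh13 had 2 counts over the A485 libraries and 32 over the control libraries and passed as lower with no filter (adjusted p = 0.0126), and Myh2, Myh4, Myh11 and Myh15 had highest counts of 2, 4, 9 and 1.

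The widely used light chains were the abundant ones. Myl6, the essential light chain of non-muscle myosin and the third most abundant member per length in both groups, had 870.3, 655, 714 and 864 CPM in the A485 libraries, against 1057, 927, 890.4 and 1050.2 CPM in the control libraries. Every A485 value lay below every control value, but the difference did not pass (log2 fold change -0.34 ± 0.14, adjusted p = 0.0596, edgeR). It passed without A485 replicate 1 (adjusted p = 0.0234), without A485 replicate 4 (adjusted p = 0.0471) and without control replicate 3 (adjusted p = 0.0488). With all 8 libraries it passed as lower by DESeq2 (adjusted p = 0.0326), limma-voom (adjusted p = 0.0486), RLE factors (adjusted p = 0.0466) and with no filter (adjusted p = 0.0441). The regulatory light chains Myl12a and Myl12b lie side by side on chromosome 17 and share reads. Myl12b fell by 0.50 ± 0.13 (edgeR adjusted p = 0.00917) to 321 ± 36.9 CPM in A485 libraries, against 454 ± 45.9 CPM in control libraries, and did not pass with library totals (adjusted p = 0.19). Myl12a overlapped between the groups, with a log2 fold change of -0.05 ± 0.15 (edgeR adjusted p = 0.79), and passed as lower without A485 replicates 3 and 4 (-0.33, adjusted p = 0.0429).

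Both tested light chains known from the heart's atrium rose. Myl4, the essential light chain of the atrium and of embryonic muscle (chr11:104546017-104587215), had 23.8, 48.5, 52.1 and 91.7 CPM in the A485 libraries, against 5.24, 6.27, 4.79 and 3.39 CPM in the control libraries. The 4 A485 libraries differed by up to 3.86-fold and all exceeded the control libraries (log2 fold change 3.45 ± 0.39, adjusted p = 8.2e-05, edgeR). Myl7, the regulatory light chain of the atrium, had 4.51, 3.18, 4.63 and 4.21 CPM in the A485 libraries, against 0.264, 0.271, 0.292 and 0.881 CPM in the control libraries. Control replicate 4 stood above the other control libraries, and without it the log2 fold change was 3.87, against 3.27 ± 0.45 with all libraries (edgeR adjusted p = 0.000228). Myl6b did not pass (log2 fold change 0.77 ± 0.75, adjusted p = 0.406), and Myl2, Myl9 and Myl10 were not tested, with highest counts of 22, 12 and 1; Myl9 entered 3 alternatives and passed as lower in 1, without A485 replicates 3 and 4 (adjusted p = 0.0206).

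Markers of muscle were counted beside these genes. Their summed level was 34.5 to 69.7 CPM in A485 libraries and 33.3 to 48.2 CPM in control libraries. Of 13 tested muscle markers 4 rose (30.8%) and 2 fell (15.4%), against 29.7% and 25% of all genes tested. Those that rose or fell are counted but not named here. Tnnt1, Tnnt2, Tnnc2, Neb, Myog, Synpo2, Myocd and Casq1 were under 1 CPM in every library. Their part in the changes of Myl4, Myl7, Tpm2 and Actn2 was not tested.

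Alpha- and beta-tubulins were higher in A485: 11 of the 13 tested rose and 1 fell. Their summed TPM was 3696 ± 688 TPM in A485 libraries and 1239.8 ± 183 TPM in control libraries (SD, n = 4 each), without overlap. Alpha-tubulins alone had 2165 ± 394 TPM in A485 libraries and 696 ± 114 TPM in control libraries, and beta-tubulins 1530.3 ± 326 TPM in A485 libraries and 543 ± 76.5 TPM in control libraries. The ratio of alpha- to beta-tubulin TPM was 1.43 ± 0.155 in A485 libraries and 1.28 ± 0.117 in control libraries, with overlapping groups. Actin TPM over alpha- and beta-tubulin TPM averaged 1.08 ± 0.156 in A485 libraries and 3.67 ± 0.386 in control libraries, a ratio that no scaling of a library can move and that did not overlap.

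**Figure D4:**
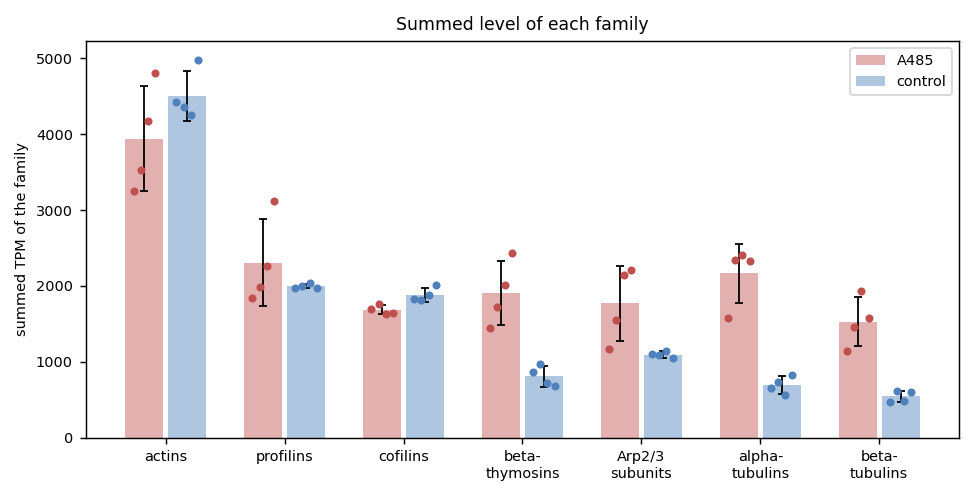
Summed TPM of 7 families (bars, mean; error bars, SD; points, the 4 libraries of each group; A485 left of control within each pair). Alpha- and beta-tubulins, beta-thymosins and Arp2/3 subunits have all A485 points above all control points. Cofilins have all A485 points below all control points, while actins and profilins overlap. TPM carries no TMM factor.

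Of the 7 alpha-tubulins, 5 rose, Tuba3a fell and Tuba8 did not pass. Tuba1c, the alpha-tubulin with the highest level per length in both groups (chr15:99029891-99038105), had 1288, 1420.3, 1381 and 1538 CPM in the A485 libraries, against 444, 496, 360.0 and 618 CPM in the control libraries. The values were tight in A485 and about 2.93 times those of the control libraries (log2 fold change 1.55 ± 0.17, adjusted p = 6.83e-05, edgeR). Tuba1a, abundant in neurons (chr15:98949847-98953501), had 293, 384, 300.2 and 426 CPM in the A485 libraries, against 67.6, 82.8, 75.9 and 111 CPM in the control libraries. Tuba1a rose by 2.06 ± 0.19 (edgeR adjusted p = 2.96e-05), the largest rise among the alpha-tubulins above 10 CPM, and its share of alpha-tubulin TPM was 13.6% ± 1.41 in A485 libraries and 8.12% ± 1.31 in control libraries. Tuba1b, a widespread alpha-tubulin, rose by 1.19 ± 0.17 (edgeR adjusted p = 0.000255), with 579 ± 75.2 CPM in A485 libraries and 253 ± 48.6 CPM in control libraries. These 3 genes lie near each other on chromosome 15 and are close copies, and their counts were not whole in any library, so the split of reads among them is uncertain.

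Tuba4a rose by 0.74 ± 0.20 (edgeR adjusted p = 0.00969) to 728 ± 173 CPM in A485 libraries, against 434 ± 76.2 CPM in control libraries, with the lowest A485 library inside the control range, and did not pass without A485 replicates 3 and 4 (adjusted p = 0.063). The 2 testis alpha-tubulins moved apart at low levels. Tuba3a (chr6:125278270-125286081) had 0.78, 1.21, 1.02 and 1.26 CPM in the A485 libraries, against 5.68, 8.76, 7.25 and 6.73 CPM in the control libraries. It was the only alpha- or beta-tubulin that fell (log2 fold change -2.73 ± 0.27, adjusted p = 4.19e-05, edgeR), and all A485 libraries were below all control libraries. Tuba3b ranged over 0.534 to 4.98 CPM in A485 libraries and 0 to 0.278 CPM in control libraries and rose by 3.93 ± 0.93 (edgeR adjusted p = 0.00489); without A485 replicate 2, its highest library, the log2 fold change was 3.08. Tuba3b passed the filter only through the A485 libraries. Tuba3a and Tuba3b share reads as well. Tuba8 was under 2 CPM in every library (log2 fold change 1.47 ± 0.69, adjusted p = 0.0917), and passed without A485 replicate 3 (1.76, adjusted p = 0.0485).

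All 6 tested beta-tubulins rose, but Tubb2b had few control counts and passed the filter only through the A485 libraries. Tubb3, the beta-tubulin used as a marker of neurons (chr8:123411553-123422015), had 55.2, 102, 149 and 72.5 CPM in the A485 libraries, against 1.94, 2.08, 1.58 and 2.27 CPM in the control libraries. It was near 2 CPM in every control library and 48.1-fold higher in A485 (log2 fold change 5.59 ± 0.34, adjusted p = 7.37e-06, edgeR). Tubb6, a widespread beta-tubulin (chr18:67390731-67402749), had 235, 335, 406 and 419 CPM in the A485 libraries, against 49.6, 68.2, 80.3 and 86.7 CPM in the control libraries. The lowest A485 library was well above the highest control library (log2 fold change 2.29 ± 0.23, adjusted p = 4.22e-05, edgeR). Tubb4b, the main beta-tubulin of both groups (chr2:25222158-25224702), had 1145, 972, 1148 and 1117 CPM in the A485 libraries, against 593, 744, 519 and 695 CPM in the control libraries. It had the smallest rise of the family (log2 fold change 0.78 ± 0.14, adjusted p = 0.00121, edgeR), with no overlap. Tubb5 had 254, 303, 297 and 361 CPM in the A485 libraries, against 94.3, 156, 88 and 136 CPM in the control libraries. It rose by 1.36 ± 0.20 (edgeR adjusted p = 0.000356), also without overlap.

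The make-up of beta-tubulin RNA differed between the groups. Tubb4b made up 60.4% ± 7.46 in A485 libraries and 77.9% ± 2.58 in control libraries of beta-tubulin TPM (SD, n = 4 each). Tubb6 made up 17.1% ± 2.64 in A485 libraries and 7.98% ± 2.08 in control libraries, and Tubb3 4.65% ± 1.67 in A485 libraries and 0.219% ± 0.0183 in control libraries. For all 3 genes the shares did not overlap between the groups.

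Tubb2a and Tubb2b, neighbours on chromosome 13 that are known from the brain, rose with a wide spread. Tubb2a ranged over 50.9 to 265 CPM in A485 libraries and 35.8 to 64.9 CPM in control libraries, and A485 replicate 1 was inside the control range (log2 fold change 1.73 ± 0.46, adjusted p = 0.0103, edgeR); without A485 replicates 3 and 4 its log2 fold change was 0.73 and did not pass (adjusted p = 0.0886). Tubb2b ranged over 0.821 to 5.14 CPM in A485 libraries and 0.0417 to 0.528 CPM in control libraries (log2 fold change 3.49 ± 0.77, adjusted p = 0.00346, edgeR), and without the same libraries its log2 fold change was 2.58. Tubb4a and Tubb1 were not tested, with 152 and 7 counts over the A485 libraries and 8 and 0 over the control libraries; 73 of the counts of Tubb4a came from 1 library. Tubb4a entered the test and passed as higher without A485 replicate 1 (adjusted p = 0.00396) and without control replicates 1, 2 and 3 (adjusted p = 0.0497, 0.0134 and 0.047), and did not pass without control replicate 4 (adjusted p = 0.0516). It also passed with no filter (adjusted p = 0.0191) and without A485 replicates 1 and 2 (adjusted p = 0.00932).

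**Figure D5:**
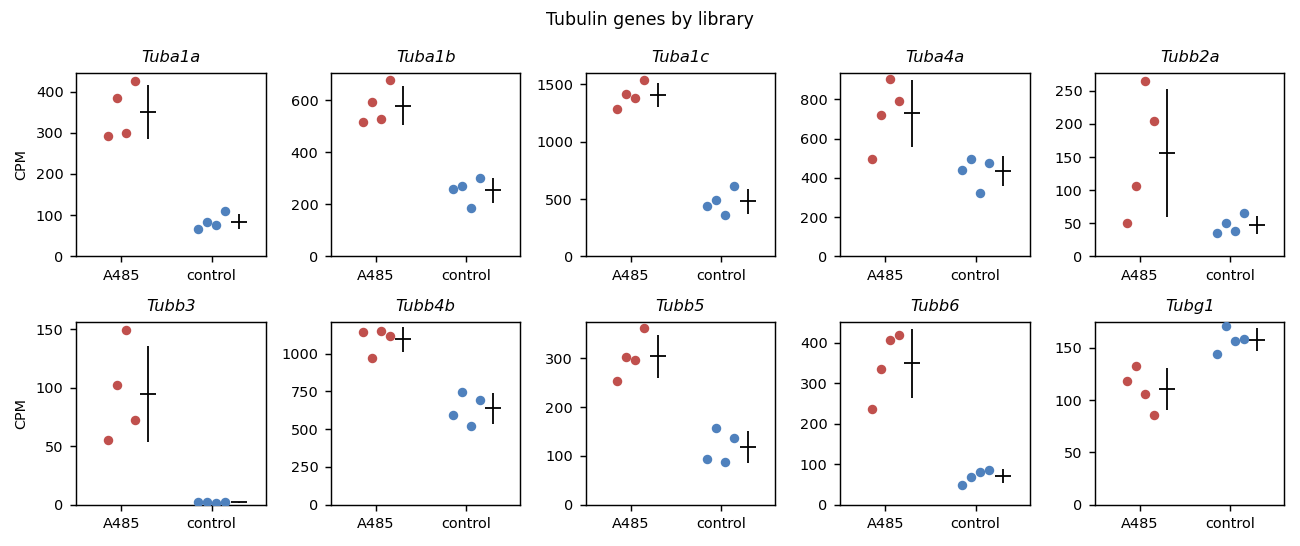
CPM in each library (points; A485 left, control right; y axis from 0) of 10 tubulin genes, with the mean (horizontal line) and SD (vertical line, n = 4). Tubb3 is near 2 CPM in the control libraries and 55.2 to 149 CPM in A485 libraries, Tuba1c and Tubb6 are separated widely, Tuba4a and Tubb2a overlap, and Tubg1 is lower in A485.

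Neuron markers were followed beside Tubb3, Tagln3, Pfn2 and Tubb2b. Their summed level was 10.3 to 24.3 CPM in A485 libraries and 3.63 to 5.37 CPM in control libraries. Of the 6 tested, 4 rose (66.7%, against 29.7% of all genes tested) and 2 did not pass. Those that rose are counted but not named here. Rbfox3, Elavl4 and Stmn2 were under 1 CPM in every library. The part of these markers in the rise of the 4 genes was not tested. Cumulus and granulosa cell markers summed to 49.1 to 67.1 CPM in A485 libraries and 27 to 49.1 CPM in control libraries. Of 6 tested, 4 rose (66.7%) and 1 fell (16.7%), and these are counted but not named here. Foxl2, Fshr, Amh, Cyp19a1, Inhba, Has2, Ptx3 and Lhcgr were under 1 CPM in every library. Fibroblast markers summed to 1.59 to 3.3 CPM in A485 libraries and 0.813 to 3.02 CPM in control libraries, and oocyte markers to 11.6 to 22.8 CPM in A485 libraries and 10.2 to 15.3 CPM in control libraries. All 10 morula markers were detected, at a summed 1939 to 3858 CPM in A485 libraries and 2290.4 to 2592 CPM in control libraries. Of these 7 fell (70%, against 25% of all genes tested) and 2 rose (20%).

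The promoters of Tubb3 and Tuba1c are shown as those of the tubulin gene with the largest rise and of the most abundant alpha-tubulin, which moved together. They come from RefSeq (GRCm38.p6), Tubb3 at chr8:123411303-123411602, plus strand, and Tuba1c at chr15:99029641-99029940, plus strand, with capitals for the same 5 motifs.
Tubb3: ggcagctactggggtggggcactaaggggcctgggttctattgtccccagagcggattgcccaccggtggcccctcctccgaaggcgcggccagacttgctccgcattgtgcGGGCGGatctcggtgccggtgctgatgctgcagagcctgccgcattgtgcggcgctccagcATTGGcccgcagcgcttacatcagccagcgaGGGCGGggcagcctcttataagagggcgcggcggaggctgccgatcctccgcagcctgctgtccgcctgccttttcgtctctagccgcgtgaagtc
Tuba1c: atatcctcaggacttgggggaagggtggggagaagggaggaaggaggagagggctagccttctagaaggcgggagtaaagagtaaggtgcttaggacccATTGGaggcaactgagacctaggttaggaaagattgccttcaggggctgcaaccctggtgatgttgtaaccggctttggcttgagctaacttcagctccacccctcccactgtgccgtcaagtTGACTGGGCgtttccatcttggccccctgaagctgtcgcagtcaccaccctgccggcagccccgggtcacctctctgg
Both hold CCAAT on the opposite strand (read here as ATTGG), at -77 in Tubb3 and -151 in Tuba1c. Tubb3 also holds GC boxes at -138 and -46, and Tuba1c an antioxidant response element at -28. CCAAT was in 7 of the 11 tested alpha- and beta-tubulin promoters in the table (63.6%), in 51% of the 51 tested members' promoters and in 39.8% of the promoters of all genes tested. The GC box was in 70.6% of tested members and 63% of all genes tested, the antioxidant response element in 13.7% and 14.7%, and the TATA motif in 7.84% and 7.12%. None of the 11 tubulin promoters held a CArG box.

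The 2 gamma-tubulins, which start microtubules as part of a ring complex, moved in opposite directions. Tubg1 (chr11:101119904-101126423), by far the more abundant, had 118, 133, 106 and 85.5 CPM in the A485 libraries, against 144, 171, 157 and 159 CPM in the control libraries. Its A485 libraries were all below the control libraries (log2 fold change -0.51 ± 0.15, adjusted p = 0.0139, edgeR), but the fall did not pass with library totals (adjusted p = 0.238), without control replicate 2 (log2 fold change -0.44, adjusted p = 0.0632) or without A485 replicates 3 and 4 (-0.33, adjusted p = 0.0539). Tubg2 ranged over 1.6 to 2.89 CPM in A485 libraries and 0.278 to 1.53 CPM in control libraries and only just passed (log2 fold change 1.28 ± 0.49, adjusted p = 0.046, edgeR). That call was lost in 6 of the 8 fits that left out 1 library, with adjusted p of 0.0832, 0.107 and 0.0546 without A485 replicates 2, 3 and 4, and of 0.102, 0.107 and 0.0956 without control replicates 1, 3 and 4. It was also lost with no filter (adjusted p = 0.0662), without A485 replicates 1 and 2 (adjusted p = 0.0677) and without A485 replicates 3 and 4 (adjusted p = 0.129). The 2 genes lie close together on chromosome 11 and share reads.

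Genes that act on these families were read from lists by function. Over all genes tested 29.7% rose and 25% fell. In most lists more genes rose than fell, by unlike margins, and 1 list went the other way. Among 22 genes of tubulin folding (the chaperonin CCT, prefoldin and the tubulin cofactors) 2 rose (9.09%) and 10 fell (45.5%). The median log2 fold change of this list was -0.33. Cct7, a subunit of the chaperonin that folds actin and tubulin, averaged 808 ± 66.5 CPM in A485 libraries and 1558 ± 56 CPM in control libraries (SD, n = 4 each; log2 fold change -0.95 ± 0.12, adjusted p = 0.000132, edgeR). Pfdn2 and Pfdn4, subunits of the prefoldin that delivers them, fell with log2 fold changes of -1.12 ± 0.17 and -0.94 ± 0.13. With library totals 5 genes of this list rose and 6 fell.

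On the microtubule side, of 32 tested genes of microtubule binding and dynamics 11 rose (34.4%) and 3 fell (9.38%), with a median of 0.28. Without A485 replicate 3 the counts were 12 and 5. Stmn3 and Stmn1, stathmins that hold tubulin pairs out of microtubules, moved apart. Stmn3 averaged 37.2 ± 9.88 CPM in A485 libraries and 143 ± 22 CPM in control libraries (log2 fold change -1.94 ± 0.20, adjusted p = 5.26e-05, edgeR), and Stmn1 averaged 180.0 ± 14.9 CPM in A485 libraries and 89.2 ± 8.99 CPM in control libraries (log2 fold change 1.01 ± 0.13, adjusted p = 0.000127, edgeR). Map1b, a microtubule-binding protein best known from neurons, rose by 3.96 ± 0.46 on the log2 scale. In the fits without A485 replicate 2, without A485 replicate 4 and without control replicate 1, 2 genes of tubulin modification fell. With all libraries, of 15 tested genes of this list 8 rose (53.3%) and 1 fell (6.67%), with a median of 0.72. The one that fell was Ttl, the ligase that puts tyrosine back on alpha-tubulin, with 5.05 ± 2.02 CPM in A485 libraries and 39 ± 9.3 CPM in control libraries (log2 fold change -2.95 ± 0.30, adjusted p = 4.84e-05, edgeR). Svbp, the partner of the vasohibins that remove that tyrosine, rose by 1.62 ± 0.20, and Tpgs2, a subunit of a tubulin polyglutamylase, by 1.53 ± 0.13.

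Of 19 tested genes of the gamma-tubulin ring and augmin complexes 6 rose and 2 fell (median 0.23). The count that rose was 3 without A485 replicate 2, without control replicate 1 and without control replicate 4, and 1 gene fell without A485 replicate 3, without A485 replicate 4 and without control replicate 2. Pcnt and Akap9, scaffold proteins of the centrosome and the Golgi, rose by 1.04 ± 0.19 and 1.78 ± 0.33, and the log2 fold change of Haus8, an augmin subunit, was -0.80 ± 0.13. Of 28 genes of cytoplasmic dynein, dynactin and kinesin-1, 12 rose (42.9%) and 4 fell (14.3%), with a median of 0.52. With library totals 1 fell. The rises were led by the dynein light chain Dynll2 (1.77 ± 0.18), the dynactin subunit Dctn2 (1.58 ± 0.19) and the dynein heavy chain Dync1h1 (1.56 ± 0.22). Of 2 tested genes of delta-, epsilon- and divergent tubulins neither passed.

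On the actin side, of 32 tested genes of nucleation and elongation 15 rose (46.9%) and 3 fell (9.38%), with a median of 0.47. Fewer of these rose with a filter of 5 CPM, as given at the end. Wasf2, a WAVE protein that activates the Arp2/3 complex, averaged 10.9 ± 2.78 CPM in A485 libraries and 37.9 ± 7.51 CPM in control libraries (log2 fold change -1.79 ± 0.22, adjusted p = 0.000137, edgeR), while Nckap1, another subunit of the WAVE complex, rose by 1.14 ± 0.14, and the formin Inf2 by 2.43 ± 0.32. Of 38 tested genes of capping, severing and crosslinking 19 rose (50%) and 5 fell (13.2%), with a median of 0.52. Gsn, encoding gelsolin, which severs and caps filaments, averaged 334 ± 124 CPM in A485 libraries and 30.8 ± 2.85 CPM in control libraries (log2 fold change 3.44 ± 0.27, adjusted p = 1.66e-05, edgeR). Ezr, encoding ezrin, which ties actin to the membrane of microvilli, averaged 5.95 ± 1.3 CPM in A485 libraries and 27 ± 4.18 CPM in control libraries (log2 fold change -2.18 ± 0.21, adjusted p = 3.55e-05, edgeR). Espn, encoding the bundling protein espin, rose by 3.90 ± 0.34.

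Of 18 tested unconventional myosins 8 rose (44.4%) and 2 fell (11.1%), with a median of 0.74. Here too fewer rose with a filter of 5 CPM. Myo5b, which moves vesicles along actin, fell, with 2.91 ± 0.833 CPM in A485 libraries and 25.7 ± 1.58 CPM in control libraries (log2 fold change -3.14 ± 0.22, adjusted p = 1.03e-05, edgeR), and Myo18a rose by 1.79 ± 0.31. Of 16 tested genes for SRF, its cofactors and targets outside the families 9 rose (56.2%) and 3 fell (18.8%), with a median of 0.80. Without A485 replicates 3 and 4 the counts were 4 and 2. Among the called genes were Fhl1 (5.35 ± 0.63), the SRF cofactor gene Mrtfb (1.53 ± 0.19) and Ccn2 (-2.42 ± 0.31). Fhl1 averaged only 0.209 CPM in control libraries. Mrtfa, another SRF cofactor gene, fell (-0.76) but lost its call under several alternatives.

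In the authors' deposited table, 45 of the 76 members had a q-value under 0.05, 31 of them higher and 14 lower in A485. The share over all genes by their q-values was not counted here. All 38 members called here were among these 45 with the same direction in the authors' deposited table. Both results come from the same 8 libraries, so the match is no separate support.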

How the data were processed

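Per the labels' protocols, RNA of 3 pooled embryos per library was turned into cDNA, amplified and cut into libraries by a transposase; whether strand was kept was not stated. HISAT2 2.2.1, RSEM 1.2.28, the build GRCm38.p6 and DESeq2 1.40.2 appear in the submitters' processing notes. Per the file headers, the authors deposited 1 table of 18257 genes with an estimated count, FPKM, TPM and a normalized count (a scaled signal) per library, and their own log2 fold change, p-value and q-value of A485 over control. Estimated counts (18.2% not whole) were rounded to whole numbers here for all tests. The deposited TPM was used to compare levels between genes per length and to describe family sums by group. It carries no TMM factor, so group differences in TPM and in CPM are on unlike scales. For example, Pfn1 averaged 1327 CPM in A485 and 1438 CPM in control libraries, but 2282 and 1993 TPM. FPKM, normalized counts and the authors' p-values entered no test.

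The test was edgeR 4.0.16 (R 4.3.3): filterByExpr, TMM factors, a robust quasi-likelihood fit with group alone, p-values adjusted by Benjamini-Hochberg over the 12936 genes kept, and 0.05 as the threshold. An error of a log2 fold change is its size over the square root of F. CPM uses TMM-scaled library sizes, and log2 CPM has a prior count of 2. Family sums, shares and ratios are descriptions without a test. The members and lists were chosen with earlier results of these data known. Named with full values were, per family, up to 4 members of smallest p past the threshold and up to 2 of highest TPM; per list, up to 3 genes of smallest p. Alternatives were DESeq2 1.42.0, limma-voom (limma 3.58.1), RLE and upper-quartile factors, library totals, no filter, 5 CPM in 4 libraries, a non-robust fit, the replicate block, and libraries left out. Tests were checked on simulated data with known changes. The simulation changed few genes, equally up and down, with the control spread in both groups. It therefore cannot speak for the scaling or for the wider spread of A485 libraries. One list of genes, and 1 gene of another list, are not reported here. Promoters are RefSeq windows of 300 bases, the first listed for each gene, which need not lie at its outermost start. Counting cannot tell PCR copies from molecules, so floors cover counting error only. Figures were drawn with matplotlib 3.10.9 in Python 3.11.15.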

Additional observations from a re-analysis of the deposited data

Results flagged for a closer look

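Among the 56 tested members, each group of 4 libraries was checked for 1 library far from the other 3 on the log2 CPM scale; 4 of 112 groups stood out, where chance flags about 1 in 20. For Actn2, control replicate 4 was highest at 7.64 log2 CPM, with the nearest control library at 7.47. For Pfn4, A485 replicate 4 was lowest at -1.91 log2 CPM, with the nearest A485 library at -0.29. For Myl7, control replicate 4 was highest at -0.056 log2 CPM, with the nearest control library at -1.43. For Tubb4b, A485 replicate 2 was lowest at 9.92 log2 CPM, with the nearest A485 library at 10.13. The calls of Actn2, Myl7 and Tubb4b held in the fit without that library, and Pfn4 did not pass in either fit.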

How the results depend on the processing

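Of the 38 called members, 26 kept call and direction under every alternative in which they were tested, and none reversed. Leaving out 1 library gave 26 to 32 members that rose and 10 to 13 that fell, against 27 and 11. Between 56 and 61 members were tested in these fits. Over all genes tested, 26.2% to 31.2% rose and 20.7% to 26.4% fell. With library totals 6 fell. The other 12 lost their call under the alternatives given beside them in the report. Reversals touched only members that did not pass. Over fits without 1 library, Actb ranged over -0.072 to 0.20, Myh14 over -0.17 to 0.49 and Myh3 over -0.099 to 0.70. Actb was -0.14 without A485 replicates 3 and 4; without the same libraries Tpm4 was -0.10, Cnn2 -0.37 and Myh14 -0.17. Myh14 was -0.29 with limma-voom, -0.15 with the replicate block, and -0.14, -0.17 and -0.07 without A485 replicate 2, A485 replicate 4 and control replicate 3. The lowest values of Actb and Myh3 came without A485 replicate 4. With library totals Arpc2 was 0.15, Pfn1 0.16 and Myl12a 0.24; without A485 replicates 1 and 2 these were 0.14, 0.0479 and 0.16. With a filter of 5 CPM, Pfn1 was 0.00328 and Myl12a 0.0742. Myl12a was also 0.0398 with upper-quartile factors, 0.0313 without A485 replicate 1 and 0.0183 without A485 replicate 2. The cause of these moves was not tested.

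With 5 CPM, 4 nucleation genes rose and 3 fell of 16 tested, against 15 and 3 of 32 with the main filter. Likewise 1 unconventional myosin rose and 2 fell of 3 tested, against 8 and 2 of 18. The count of rises in these 2 lists thus depended on genes of low count. Same-numbered libraries did not deviate together (correlations of 0.00518, 0.0138, 0.104 and 0.0672), so the replicate block has no stated basis. With it 27 members rose and 11 fell (27.1% and 24.5% of all genes tested). With it also 3 genes of the gamma-tubulin ring list rose in place of 6. Low members were measured less precisely: standard errors of the log2 fold change were 0.59 to 0.67 for the 4 tested heavy chains under 2 CPM, against 0.16 for Myh10.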
